A study of Mus musculus with 9 samples.

Results

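The genes described here belong to bone morphogenetic protein (BMP) signalling and were followed in MLO-Y4 cells, a mouse line used as a model of osteocytes. They are the ligand genes Bmp2 and Bmp4, the receptor gene Bmpr1a, the antagonist gene Grem1, the inhibitory SMAD genes Smad6 and Smad7, and the ID genes Id1, Id2, Id3 and Id4. These 10 genes were chosen by name from the 56748 genes of the count table, with earlier results of these data known. Each symbol matched 1 gene. RNA of MLO-Y4 cells was sequenced in 9 libraries, 3 per group, after co-culture with primary articular chondrocytes in transwell inserts. The chondrocytes came from C57BL/6J mice aged 5 to 6 days and were used within passage 2. In the control group they were not stimulated. In the other groups they had received interleukin-1β (10 ng/mL, 6 h), and co-culture then lasted 24 h or 48 h. The labels give no co-culture time for the control group, so stimulation and time cannot be told apart in a difference from control. The 24 h and 48 h groups were both stimulated and differ in co-culture time.

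BMP ligands bind type I and type II receptor kinases, which phosphorylate SMAD1, SMAD5 and SMAD9. These enter the nucleus with SMAD4 and raise transcription of the ID genes and of the inhibitory SMADs, which feed back on the receptors. ID proteins lack a DNA-binding region and hold E proteins in dimers that cannot bind DNA. In bone, BMP signalling is known for driving osteoblast differentiation, and osteocytes are known as a source of its secreted antagonists.

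Library totals were 12250628 to 15956441 counts for the control, 14440454 to 15558585 for 24 h and 16458398 to 18515456 for 48 h. Values per library are counts scaled to a common library total (CPM, with edgeR's TMM factors), and a value with ± is the mean and SD of the 3 libraries of a group. All 48 h libraries are deeper than the control libraries, and thinning every library to the smallest total is among the alternatives. Of the osteocyte markers, Mepe and Fgf23 had no read in any library, Sost at most 1 and Dmp1 at most 6, whereas Pdpn and Phex were expressed. Several transcripts that define osteocytes were thus at or near 0 in these cells. Of the 13 chondrocyte markers, 5 had no read in any library, Acan among them, and Col2a1 had at most 7 counts. Their summed level was 1681 to 1716 CPM in the control, 1565 to 1649 CPM at 24 h and 2127 to 2216 CPM at 48 h, most of it from Prg4 (means of 1576, 1493 and 2047 CPM). Of the 5 tested chondrocyte markers, 3 were higher at 48 h than in the control by an adjusted p under 0.05 in edgeR. That stands beside 22.0% of all genes. Matn3 was lower (log2 fold change -1.25, adjusted p 0.00155, edgeR), beside 24.4% of all genes that were lower. The 5 macrophage markers summed to 18.3 to 20.1 CPM in the control, 23.8 to 26.1 CPM at 24 h and 20.3 to 23.8 CPM at 48 h, with no read of Adgre1 and at most 1 of Ptprc. These sums hide opposite directions at 24 h versus control. Cd14 was higher (log2 fold change 0.62, adjusted p 0.000304, edgeR). Csf1r was lower (-0.84, adjusted p 0.0377, edgeR), though not in DESeq2, and Cd68 had -0.18 (adjusted p 0.796, edgeR). The part of these markers in the results below was not tested, and fewer cells of a type and less RNA per cell cannot be told apart in bulk RNA. The labels also name a different cell line for each 48 h library, spelled as MLO-Y4 but for its last digit, although only MLO-Y4 appears in the protocols. The labels do not say whether libraries came from separate cultures, so p-values measure the spread between these libraries, which may be technical.

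At 48 h the expressed ID genes and Smad7 were lower than in the control, and Grem1 and Bmpr1a were higher. Of the 10 genes, 8 passed the filter on low counts, and 6 of these were called different from control at 48 h, beside 46.4% of all genes tested, by an adjusted p under 0.05 in edgeR's quasi-likelihood test. Lower were Id1, Id2, Id3 and Smad7, a count of 4 beside 24.4% of all genes tested that were called lower. Higher were Grem1 and Bmpr1a, a count of 2 beside 22.0% of all genes called higher. The median log2 fold change of the 8 genes was -0.29, beside -0.0022 over all 13812 genes tested. Because the genes were chosen with earlier results known, these counts and this median are a description. At 24 h Grem1 and Id3 were the 2 genes called, beside 6.15% of all genes, and both were higher, beside 3.25% of all genes. None was called lower at 24 h in edgeR, beside 2.90% of all genes, although 1 of them had an unadjusted p under 0.05, and DESeq2 called none lower either. No overlap with the control libraries was seen for 6 of the 8 genes at 48 h, beside 53.1% of all genes, and for 3 of the 8 at 24 h, beside 21.5%.

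**Figure D1:**
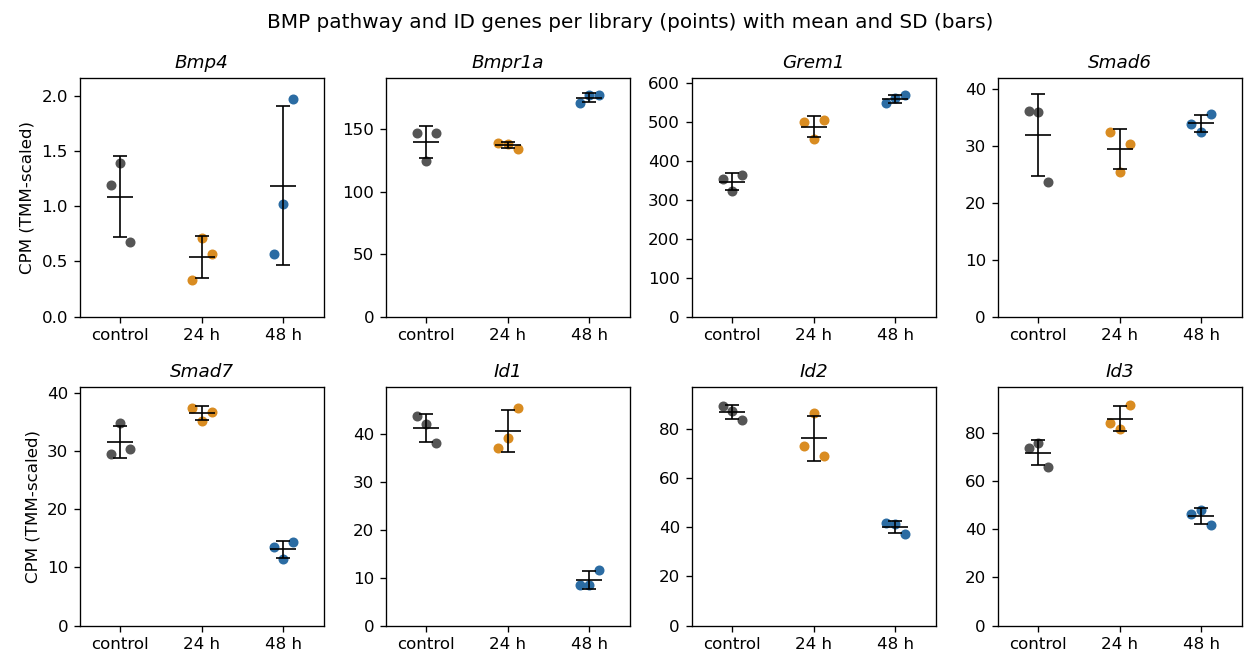
Expression in CPM (vertical axes, starting at 0) of the 8 tested genes in each of the 9 libraries (points), with the mean and SD of the 3 libraries of each group (bars). The 48 h libraries of Id1, between 8.39 and 11.6 CPM, sit below all others, while those of Grem1, between 547 and 568 CPM, sit above all others.

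Id1 (ENSMUSG00000042745, chromosome 2, 152578171 to 152579330, GRCm39, plus strand) encodes an inhibitor of DNA binding and is a standard readout of BMP signalling. It stood at 43.9, 42.1 and 38.1 CPM in the control libraries, at 37.2, 39.3 and 45.6 CPM at 24 h, and at 8.40, 8.39 and 11.6 CPM at 48 h. The 48 h libraries lay far below all others, and the control and 24 h libraries were intermingled. On the log2 scale it changed by -2.12 at 48 h (SE 0.11, adjusted p 6.14e-11, edgeR), that is 4.35-fold lower than the control. At 24 h it was -0.026 (95% confidence interval -0.23 to 0.18, adjusted p 0.931, edgeR), and its sign turned without control replicate 1 (0.024), without 24 h replicate 1 (0.037) or without 24 h replicate 2 (0.0027). The fall of Id1 at 48 h was known when these genes were chosen.

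Id2 (chromosome 12, 25143798 to 25147139) measured 89.2, 87.2 and 83.5 CPM in the control, 72.9, 86.3 and 68.7 CPM at 24 h, and 41.6, 41.1 and 37.4 CPM at 48 h. All 48 h libraries were below all control and 24 h libraries, and 1 of the 24 h libraries lay within the control range. Its log2 fold change was -1.12 at 48 h (SE 0.08, adjusted p 1.54e-09, edgeR) and -0.19 at 24 h (SE 0.07, adjusted p 0.162, edgeR). Without 24 h replicate 2, the library within the control range, the 24 h value was -0.29 (adjusted p 0.0202, edgeR).

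Id3 (chromosome 4, 135870808 to 135873066) moved differently at the earlier time. It measured 74.0, 75.8 and 65.8 CPM in the control, 84.0, 81.9 and 91.8 CPM at 24 h, and 46.5, 48.0 and 41.7 CPM at 48 h. The 3 groups did not overlap, with the 24 h libraries highest and the 48 h libraries lowest. On the log2 scale this was a change of 0.26 at 24 h (SE 0.07, adjusted p 0.0338, edgeR) and -0.66 at 48 h (SE 0.07, adjusted p 5.19e-07, edgeR). The 24 h call rested on single libraries, since it was lost without control replicate 1 (adjusted p 0.0626), control replicate 3 (0.0674), 24 h replicate 1 (0.078) or 24 h replicate 3 (0.175), and in a fit of the control and 24 h libraries alone (0.0542). The 95% confidence intervals of the log2 fold changes at 48 h ran from -2.36 to -1.88 for Id1, from -1.28 to -0.95 for Id2 and from -0.82 to -0.51 for Id3, and did not overlap. The difference between the genes was not tested otherwise.

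Id4 (chromosome 13, 48414704 to 48419502) had 0 to 3 counts per library, which is at or under the floor of 3 counts, the limit that a count of 0 allows. It did not pass the filter, and no fold change is given. That floor amounts to 0.160 to 0.245 CPM depending on the library and covers counting error only.

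The windows just before the annotated gene starts are shown for Id2 and Id3, which fell at 48 h, and for Bmpr1a and Grem1, which rose. RefSeq (GRCm38.p6, a build other than that of the counts) gave a promoter for 7 of the 10 genes, Id1, Smad7 and Bmp2 not among them. Each window holds the 250 bases before the start, 5′ to 3′ on the strand of the gene, and capitals mark matches on either strand to GGCGCC or CAGAC, letters known from SMAD-binding sites. The windows are chr12:25096093-25096342 for Id2 (minus strand), chr4:136143572-136143821 for Id3 (plus strand), chr14:34502547-34502796 for Bmpr1a (minus strand) and chr2:113758649-113758898 for Grem1 (minus strand).
Id2: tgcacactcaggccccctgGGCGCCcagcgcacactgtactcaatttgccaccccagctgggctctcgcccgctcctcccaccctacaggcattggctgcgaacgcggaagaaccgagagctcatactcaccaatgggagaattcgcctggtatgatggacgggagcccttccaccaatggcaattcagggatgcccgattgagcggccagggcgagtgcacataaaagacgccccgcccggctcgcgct
Id3: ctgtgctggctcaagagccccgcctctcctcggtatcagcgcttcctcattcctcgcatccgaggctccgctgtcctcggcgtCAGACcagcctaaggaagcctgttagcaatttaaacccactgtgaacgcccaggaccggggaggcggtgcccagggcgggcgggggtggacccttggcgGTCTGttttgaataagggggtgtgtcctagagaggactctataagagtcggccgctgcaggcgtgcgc
Bmpr1a: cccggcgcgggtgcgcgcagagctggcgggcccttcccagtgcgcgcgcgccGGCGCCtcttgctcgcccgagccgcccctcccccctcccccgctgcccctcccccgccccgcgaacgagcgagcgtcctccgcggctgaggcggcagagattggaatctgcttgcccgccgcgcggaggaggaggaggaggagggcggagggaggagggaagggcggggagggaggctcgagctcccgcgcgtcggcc
Grem1: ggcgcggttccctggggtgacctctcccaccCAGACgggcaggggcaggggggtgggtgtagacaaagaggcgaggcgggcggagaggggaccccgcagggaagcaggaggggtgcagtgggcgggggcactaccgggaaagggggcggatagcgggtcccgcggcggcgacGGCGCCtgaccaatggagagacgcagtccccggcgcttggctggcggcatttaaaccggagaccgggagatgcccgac
GGCGCC stood 231 bases before the start in Id2, 198 before it in Bmpr1a and 78 before it in Grem1, and also in the window of Id4, whereas 9.59% of the 32851 windows in the table hold it. CAGAC or its complement occurred in Id3 with 2 matches and in Grem1 with 1, and 42.2% of all windows hold it. Genes that fell and genes that rose thus both carried these letters. GTCTAGAC, the palindromic SMAD-binding letters, was in none of the 7 windows and in 0.167% of all windows. Letters in a window of this length are a description and not evidence of a site.

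The inhibitory SMAD genes, which encode feedback inhibitors of the pathway, went separate ways. Smad7 (chromosome 18, 75500600 to 75529006), whose product blocks both BMP and TGF-β receptors, measured 29.5, 34.8 and 30.3 CPM in the control, 37.4, 35.1 and 36.8 CPM at 24 h, and 13.4, 11.4 and 14.4 CPM at 48 h. Its 24 h libraries were just above the control range and its 48 h libraries well below it. Relative to control, its log2 value changed by -1.26 at 48 h (SE 0.09, adjusted p 3.64e-09, edgeR), or 2.40-fold lower, and 0.21 at 24 h (SE 0.09, adjusted p 0.174, edgeR).

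Smad6 (chromosome 9, 63860358 to 63929341), whose product acts mainly on the BMP branch, measured 36.2, 36.1 and 23.7 CPM in the control, 32.4, 25.5 and 30.5 CPM at 24 h, and 34.0, 32.5 and 35.6 CPM at 48 h. The spread of its control group came from control replicate 3, and the groups overlapped in both comparisons with control. The log2 fold change was 0.088 at 48 h (95% confidence interval -0.17 to 0.34, adjusted p 0.583, edgeR) and -0.12 at 24 h (95% confidence interval -0.38 to 0.14, adjusted p 0.665, edgeR). Without control replicate 3 these became -0.072 at 48 h and -0.29 at 24 h, the latter with an adjusted p of 0.0457 (edgeR). The intervals of Smad6 and Smad7 at 48 h did not overlap.

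Of the ligand genes, neither was expressed at a level that allowed a precise comparison. Bmp4 (chromosome 14, 46620977 to 46628126) had 5 to 37 counts per library. Its levels were 1.19, 1.39 and 0.677 CPM in the control, 0.334, 0.716 and 0.564 CPM at 24 h, and 0.571, 1.02 and 1.98 CPM at 48 h. The groups overlapped in every comparison, and the 48 h libraries spread widest. Its log2 fold change was 0.14 at 48 h (95% confidence interval -0.74 to 1.03, adjusted p 0.806, edgeR) and -0.999 at 24 h (95% confidence interval -2.05 to 0.047, adjusted p 0.295, edgeR). At 48 h the sign turned without control replicate 3 (-0.082) or without 48 h replicate 3 (-0.45). Bmp2 (chromosome 2, 133394079 to 133404805) had 1 count in 1 library at 48 h and none in the 8 others, under the floor of 3 counts, so that no change was detectable at this depth.

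Bmpr1a (chromosome 14, 34132691 to 34225298), a type I receptor of BMP2 and BMP4, measured 146.8, 124.7 and 147.2 CPM in the control, 139.0, 138.2 and 134.1 CPM at 24 h, and 171.2, 177.0 and 177.5 CPM at 48 h. The 48 h libraries were above all others, and the 24 h libraries lay within the control range. The log2 fold change was 0.33 at 48 h (SE 0.06, adjusted p 0.000202, edgeR), or 1.25-fold. At 24 h it was -0.027 (95% confidence interval -0.15 to 0.10, adjusted p 0.876, edgeR), and its sign turned without control replicate 1 (0.015) or without control replicate 3 (0.017).

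Grem1 (chromosome 2, 113576509 to 113588991) encodes gremlin 1, a secreted protein that binds BMP2 and BMP4 and keeps them from their receptors. It measured 352.8, 321.2 and 362.7 CPM in the control, 498.8, 456.0 and 505.6 CPM at 24 h, and 546.9, 561.3 and 568.2 CPM at 48 h. The groups did not overlap, in the order control, 24 h and 48 h. The log2 fold change was 0.49 at 24 h (SE 0.05, adjusted p 4.94e-06, edgeR) and 0.69 at 48 h (SE 0.05, adjusted p 4.66e-09, edgeR), or 1.41-fold and 1.62-fold. Of the 10 genes, Grem1 alone was called against control at both times in the same direction. The 24 h and 48 h comparisons share the control libraries.

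**Figure D2:**
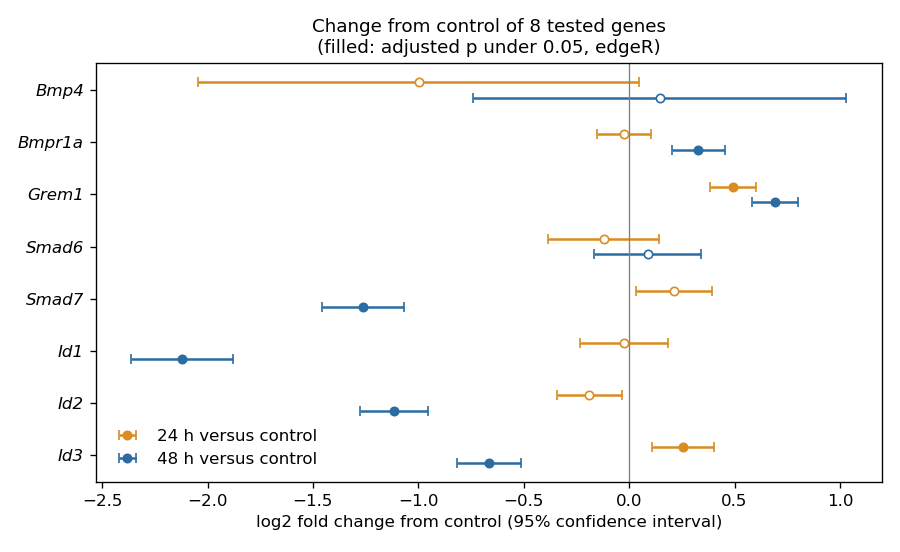
Log2 fold change from control (horizontal axis) of the 8 tested genes at 24 h and 48 h, with 95% confidence intervals from the edgeR fit and filled points where the adjusted p was under 0.05. Id1, at -2.12, had the lowest value at 48 h, and the intervals of Id1, Id2, Id3 and Smad7 at 48 h lie entirely below 0.

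The comparison of 48 h with 24 h sets the libraries of stimulated co-culture against each other. It comes from the same fit of all 9 libraries, so the control libraries still enter the filter, the scaling and the estimate of spread. It called 6 of the 8 genes, beside 49.1% of all genes tested. Of these, 4 were lower, beside 25.4% of all genes, and 2 higher, beside 23.7%. The libraries did not overlap for 7 of the 8 genes, beside 59.4% of all genes. Id1 stood at -2.09 on the log2 scale (SE 0.11, adjusted p 5.59e-11, edgeR) and Smad7 at -1.47 (SE 0.09, adjusted p 3.45e-10, edgeR). Id2 and Id3, which differed from each other in their changes from control, had close values here, -0.93 (95% confidence interval -1.09 to -0.77) and -0.92 (95% confidence interval -1.07 to -0.77). Bmpr1a had 0.35 (SE 0.06) and Grem1 0.20 (SE 0.05), and for both all 48 h libraries were above all 24 h libraries. Smad6 was at 0.21 (SE 0.12, adjusted p 0.164, edgeR) with its 48 h libraries just above those at 24 h. Leaving out control replicate 3 gave a call (adjusted p 0.029), as did a fit of these 6 libraries alone (adjusted p 0.0274). Bmp4 was at 1.14 (SE 0.47, adjusted p 0.0528, edgeR) with overlapping libraries. Its adjusted p ranged from 0.0139 without 48 h replicate 1 to 0.405 without 48 h replicate 3 over 16 alternatives, of which 7 called it.

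Levels were compared between genes per kilobase of the gene length given in the table, as CPM per kilobase. In the control, Grem1 was at 83.3 ± 5.23 (SD, n = 3), Id3 at 40.1 ± 2.96, Id1 at 35.7 ± 2.53, Id2 at 35.5 ± 1.18, Bmpr1a at 22.0 ± 2.03, Smad6 at 9.98 ± 2.24, Smad7 at 6.97 ± 0.624 and Bmp4 at 0.483 ± 0.164. Id3 overlapped with Id1, Id1 with Id2, and Smad6 with Smad7, while the other neighbours among these 8 genes were separate in all libraries. The antagonist gene thus had a higher level per length than either ligand gene in every library. At 48 h the order was Grem1 (134.7 ± 2.62), Bmpr1a (27.6 ± 0.553), Id3 (25.3 ± 1.84), Id2 (16.4 ± 0.943), Smad6 (10.6 ± 0.478), Id1 (8.17 ± 1.61), Smad7 (2.89 ± 0.329) and Bmp4 (0.529 ± 0.319), with no overlap between neighbours. Id1 passed from rank 3 to rank 6 in this order.

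**Figure D3:**
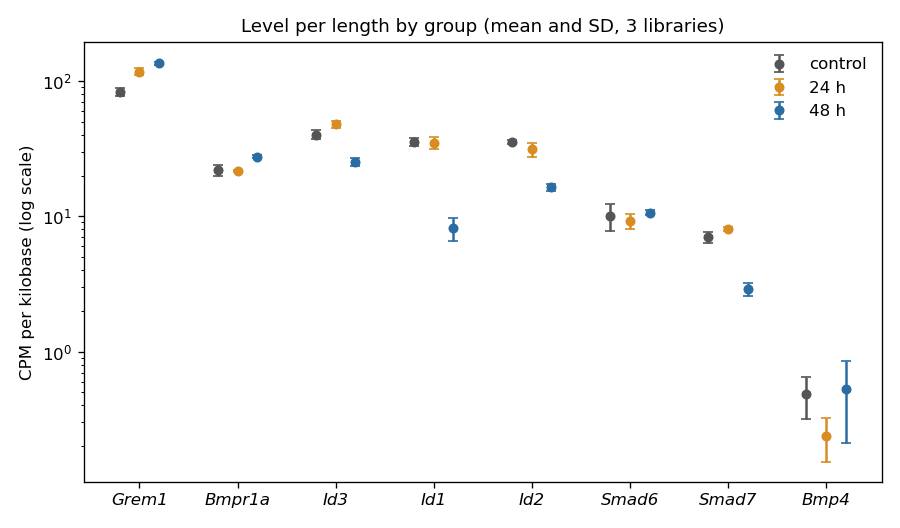
Level per length in CPM per kilobase (vertical axis, log scale) of 8 genes by group, as the mean and SD of 3 libraries. Grem1 lies highest in each group, from 83.3 in the control to 134.7 at 48 h, and Bmp4 lowest, between 0.239 and 0.529.

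Across the 9 libraries the log2 CPM of Id1 had a Pearson correlation of 0.98 with Smad7, 0.95 with Id2, 0.92 with Id3, -0.91 with Bmpr1a and -0.70 with Grem1. These values are a description, because the libraries fall into groups that separate at 48 h. Among 10079 other protein-coding genes with a mean of at least 5 CPM, the most similar to Id1 were Sfxn1 (0.999), Gatad2a (0.995), Hmga1 (0.994), Bcar1 (0.994) and Clptm1l (0.993). Opposite-strand genes with counts overlap Hmga1, so its count is uncertain unless counting used the strand.

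Beyond these 10 genes, 66 further genes were listed, with the E proteins and known TGF-β targets as well as BMP pathway genes. Of the 66 genes, 42 were tested. At 48 h 19 of them were called higher and 9 lower than control, beside 22.0% and 24.4% of all genes, with a median log2 fold change of 0.17. At 24 h 6 were called higher, beside 3.25% of all genes, and none lower in edgeR, beside 2.90%, with 1 lower at an unadjusted p under 0.05 and none lower in DESeq2. The count of 6 became 3 without 24 h replicate 1, 24 h replicate 2 or 24 h replicate 3.

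Of 10 tested genes listed as antagonists or binding proteins, Grem1 aside, 6 were called higher at 48 h, beside 22.0% of all genes. None was lower in edgeR, by an unadjusted p under 0.05 or in DESeq2, beside 24.4% of all genes called lower in edgeR. Chrd, which encodes the BMP-binding protein chordin, measured 1.59 ± 0.403 CPM under control conditions and 3.63 ± 0.625 CPM at 48 h (log2 fold change 1.20, SE 0.25, adjusted p 0.000586, edgeR). It overlaps Thpo, with 1 to 10 counts per library, on the opposite strand. Bmper, a chordin-like extracellular modulator, went from 43.3 ± 2.79 CPM to 73.2 ± 1.87 CPM, with a log2 fold change of 0.75. Nbl1, a relative of gremlin, went from 127.9 ± 9.08 CPM to 214.3 ± 1.82 CPM, with 0.74. For Chrd, Bmper and Nbl1 all 48 h libraries were above all control libraries. At 24 h 3 of the 10 were called higher in edgeR, beside 3.25% of all genes, and 2 in DESeq2. None was lower at 24 h in edgeR, by an unadjusted p under 0.05 or in DESeq2, beside 2.90% of all genes in edgeR. Fst, which encodes the activin and BMP antagonist follistatin, had another course, with 4.15 ± 0.293 CPM in the control, 8.37 ± 0.890 CPM at 24 h and 4.71 ± 0.612 CPM at 48 h. Its log2 fold change was 1.01 at 24 h (SE 0.16, adjusted p 0.000381, edgeR) and 0.18 at 48 h (adjusted p 0.404, edgeR). Nog and Sostdc1, which encode further antagonists, had no read in any library.

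Among the other ligands 2 of 12 were tested. Gdf5, a ligand known from joint formation, went from 29.9 ± 1.71 CPM in the control to 49.9 ± 2.39 CPM at 48 h (log2 fold change 0.74, SE 0.08, adjusted p 3.97e-07, edgeR), with its 48 h libraries above all control libraries. Bmp8a had 5 to 36 counts per library and a log2 fold change of 0.98 (adjusted p 0.0338, edgeR). Its call was lost without control replicate 1 (adjusted p 0.0621), control replicate 2 (0.112), 48 h replicate 1 (0.162) or 48 h replicate 2 (0.085), and in DESeq2 (0.0657).

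Of 7 tested receptors and co-receptors, 4 were called higher at 48 h, beside 22.0% of all genes. None was lower by edgeR, an unadjusted p under 0.05 or DESeq2, beside 24.4% of all genes in edgeR. Rgmb, a membrane-anchored co-receptor, had a log2 fold change of 0.43 (SE 0.07), the type I receptor gene Bmpr1b 0.41 (SE 0.09) and the type II receptor gene Acvr2a 0.32 (SE 0.10). The expressed gene Orc4 overlaps Acvr2a in antisense, which leaves the count of Acvr2a uncertain unless strand was used. At 24 h none of the 7 was called in edgeR or DESeq2, and 1 was lower at an unadjusted p under 0.05.

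Of 8 signal transducers, 2 were called higher and 2 lower at 48 h, near the 22.0% and 24.4% of all genes, with log2 fold changes between -0.25 and 0.26. Tob1, an antiproliferative protein that binds SMADs, had a log2 fold change of 0.26 (SE 0.06), Smad9, a BMP receptor-activated SMAD, -0.25 (SE 0.07) and Smurf1, a ubiquitin ligase for SMADs, -0.18 (SE 0.05). Smad5, another BMP receptor-activated SMAD, had 0.22 at 24 h (adjusted p 0.0338, edgeR). That call was lost on leaving out any of control replicates 1 and 2, 24 h replicates 1 to 3 and 48 h replicates 1 and 2, with adjusted p values from 0.0529 to 0.114. It was also lost without TMM (0.052) and in a fit of only the groups compared (0.0849). At 48 h Smad5 had 0.16 (adjusted p 0.0335, edgeR). This call was lost without control replicate 2 (0.108), 48 h replicate 1 (0.0844) or 48 h replicate 2 (0.103), and in a fit of only the groups compared (0.0507).

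Of 7 other tested genes known as BMP targets, 4 were called lower at 48 h, beside 24.4% of all genes, and 1 higher, beside 22.0%. Atoh8, a transcription factor of the basic helix-loop-helix family induced by BMP receptors, went from 23.9 ± 1.40 CPM in the control and 25.9 ± 1.13 CPM at 24 h to 11.5 ± 0.475 CPM at 48 h. Its log2 fold change was -1.05 at 48 h (SE 0.09, adjusted p 1.7e-08, edgeR), with all 48 h libraries below all others. Dlx2, a homeobox gene, had -1.14 (SE 0.29, adjusted p 0.00346, edgeR) on 12 to 38 counts per library. Sp7, which encodes the osteoblast transcription factor osterix, had -1.07 (SE 0.34, adjusted p 0.0139, edgeR) on 14 to 35 counts. The call of Sp7 was lost without control replicate 3 (adjusted p 0.065) and with all libraries thinned to the smallest total (0.0516). At 24 h none of the 7 was called in edgeR, by an unadjusted p under 0.05 or in DESeq2.

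E proteins, the partners of ID proteins, were expressed throughout. Tcf4 rose at 48 h by 0.50 on the log2 scale (SE 0.08, adjusted p 8.18e-05, edgeR), from 96.4 ± 15.5 CPM to 136.7 ± 7.53 CPM. Tcf12 was at 0.13 (adjusted p 0.0487, edgeR). Its call was lost on leaving out control replicate 2, 24 h replicate 1 or any 48 h replicate, with adjusted p values from 0.0588 to 0.137. It was also lost with no filter on low counts (0.0813) and in a fit of only the groups compared (0.0677). Tcf3 was at -0.046 (adjusted p 0.506, edgeR), and at 0.010 without control replicate 2. None of the 3 was called at 24 h in edgeR, by an unadjusted p under 0.05 or in DESeq2.

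Since TGF-β is also known to induce Smad7, known TGF-β targets were followed too, and called genes among them went in both directions at 48 h. Pmepa1, a feedback inhibitor of TGF-β signalling, and Tgfbi, a matrix protein, were higher at 48 h with 0.71 (SE 0.07) and 0.66 (SE 0.05).

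**Figure D4:**
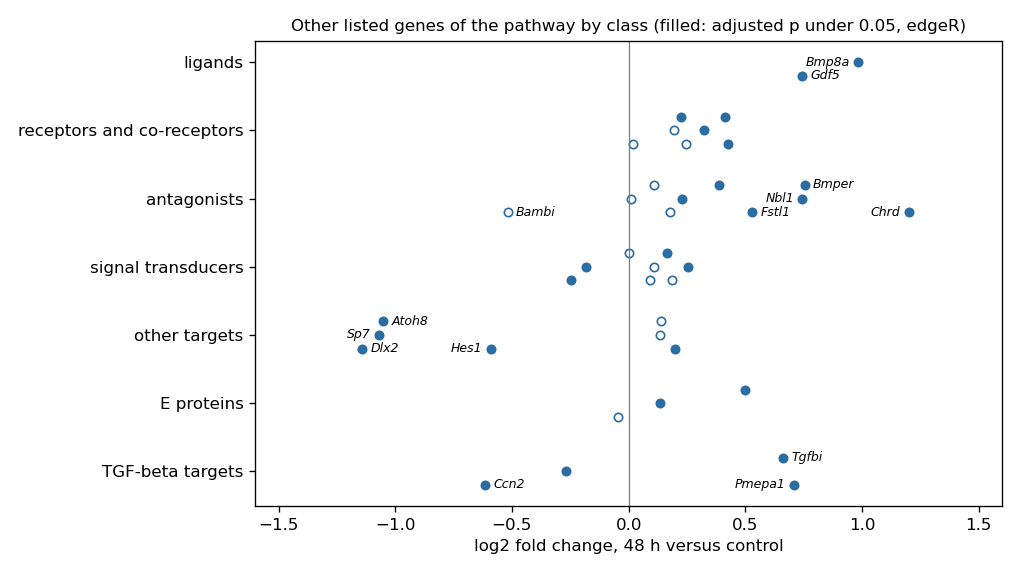
Log2 fold change at 48 h versus control (horizontal axis) of tested genes other than the 10 described first, by class, E proteins and TGF-β targets included. Points are filled where the adjusted p was under 0.05, and names are given beyond 0.5 in either direction. The filled points of ligands, receptors and antagonists lie above 0, up to 1.20 for Chrd, and those of other targets reach down to -1.14 for Dlx2.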

How the data were processed

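RNA from 9 MLO-Y4 samples was sequenced from directional, paired-end libraries. The authors aligned reads to GRCm39 with HISAT2 and counted them per gene with featureCounts (2.06 per the submitters' processing notes, given differently elsewhere). The deposited values are raw counts. Strand setting and treatment of multiply matching reads are not given in the sources used here. Gene lengths are another deposited column.

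Sample titles gave groups and replicate numbers. In R 4.3.3, edgeR 4.0.16 tested the 13812 genes that filterByExpr kept (minimum count 10, 99.9% of reads). TMM scaling was used, and one quasi-likelihood model held all libraries, with no covariate beside group. Benjamini-Hochberg adjustment ran over all tested genes at a threshold of 0.05. SE is the absolute log2 fold change over the square root of F, and intervals are at the 95% level. Correlations used log2 CPM with a prior count of 2.

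The 10 genes and the lists were chosen with earlier results of these data known. The text names these 10 genes, the 3 E proteins, the 5 genes most like Id1 and, from each other class, up to 3 genes at 48 h and 1 at 24 h with the largest absolute log2 fold change (called, mean CPM of 1 or more in either group, libraries not overlapping). Some genes of the lists are counted but are not named, plotted or otherwise reported here. Markers, genes without a read, and Orc4 and Thpo were named after their values were seen. Alternatives were DESeq2 1.42.0 and its size factors, totals without TMM, no filter, a fit of only the groups compared, a replicate block, thinning to the smallest total, and leaving out each library.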

Additional observations from a re-analysis of the deposited data

Results flagged for a closer look

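The changes from control at 24 h and 48 h were called different from each other, by the direct test of 48 h versus 24 h in edgeR, for the genes below, each with its log2 fold change between these times. Beside 49.1% of all genes tested that were called in this comparison, this held for 6 of the 8 tested genes described first: Id1 (-2.09), Smad7 (-1.47), Id2 (-0.93), Id3 (-0.92), Bmpr1a (0.35) and Grem1 (0.20). Id3 was the only one of them with calls in opposite directions against control, and its 24 h call held in 11 of 16 alternatives.

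Among the 66 further genes, E proteins and TGF-β targets included, 20 were called higher at 48 h than at 24 h, beside 23.7% of all genes. Lower were 9, beside 25.4%, and only genes that the naming rule covers are given here. Higher were the ligands Bmp8a (1.48) and Gdf5 (0.91), the receptors and co-receptors Rgmb (0.62), Bmpr1b (0.36) and Acvr2a (0.35), and the antagonists Chrd (1.10), Nbl1 (0.78) and Bmper (0.74). Tob1 (0.32), the E proteins Tcf4 (0.47) and Tcf12 (0.19), and the TGF-β targets Pmepa1 (0.73) and Tgfbi (0.59) were higher as well. Lower at 48 h than at 24 h were Atoh8 (-1.17), Dlx2 (-1.01), Sp7 (-0.97), Fst (-0.83) and Smad9 (-0.22). Sp7 lost this call without 24 h replicate 1 (adjusted p 0.0723), 24 h replicate 2 (0.12), 48 h replicate 1 (0.0727) or 48 h replicate 2 (0.0649) and after thinning (0.0871). Smad9 lost it without 24 h replicate 1 (0.0513) or 48 h replicate 1 (0.0592). No cause of these differences was tested.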

How the results depend on the processing

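The 6 genes called at 48 h versus control among the 10 (Id1, Id2, Id3, Smad7, Grem1 and Bmpr1a) kept direction and call in all 16 alternatives each. At 24 h versus control the count of higher genes among the 10 was 1 in a fit of only those groups and 1 to 2 with libraries left out, and the count of lower genes was 0 to 1. At 48 h versus 24 h the count of higher genes was 4 in a fit of only those groups and 2 to 4 with libraries left out. For the 66 further genes, the count higher at 24 h versus control was 3 to 6 with libraries left out. Signs that turned belonged to values that were not called. With libraries left out, log2 fold changes ran from -0.45 to 0.47 for Bmp4 and from -0.072 to 0.21 for Smad6 at 48 h, and from -0.11 to 0.037 for Id1 and from -0.097 to 0.017 for Bmpr1a at 24 h, each against control. Tcf3 at 48 h ran from -0.066 to 0.010. The cause was not tested.

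The groups share replicate numbers, but deviations from the group means did not go together by number (correlations of -0.049 to 0.077 between libraries of the same number), so the numbers were not taken as pairs. With the number as a replicate block, the counts among the 10 genes were 2 higher and 4 lower at 48 h versus control, 2 higher and 0 lower at 24 h, and 2 higher and 4 lower at 48 h versus 24 h, and over all genes 958 were called at 24 h, beside 849 without the block. Among the 10 genes, counts were lowest for Bmp2 and Id4, which could not be tested. Thinning to the smallest total kept the 48 h calls against control of Bmp8a and Dlx2 and lost that of Sp7 (adjusted p 0.0516).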
